A study of Bos taurus with 81 samples.

Results

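The bins described here are stretches of the bovine genome that carried H3K27ac in 8-cell embryos grown with α-amanitin and that did not reach the same limit at the 2-, 4- or 8-cell stage without it. The 29 autosomes were cut into 1 kb bins from the first base, and a bin was called marked in a peak list when at least 50% of it, or 500 bp, lay under peaks. Member bins were chosen by their H3K27ac coverage alone. Each was marked in both H3K27ac lists of the inhibitor-treated embryos (8A) and in none of the 6 H3K27ac lists of the 2-cell (2C), 4-cell (4C) and untreated 8-cell (8C) embryos. There were 10276 member bins among 2488055, or 0.413% of all autosomal bins. They summed to 10.3 Mb and made up 15.6% of the 66056 bins marked in both 8A lists.

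The lists came from CUT&Tag, where a transposase tied to an antibody cuts and tags DNA next to a histone mark, and from ATAC-seq, where a free transposase tags whatever DNA is open. GV oocytes, which are arrested in prophase with an intact nucleus, were taken before maturation in vitro. The embryos were made in vitro from slaughterhouse oocytes and frozen semen and were sampled after insemination, 2C at 32 h, 4C at 44 h, both kinds of 8-cell embryo at 56 h, morulae (MO) at 122 h and blastocysts (BL) at 172 h. The 8A embryos had grown with α-amanitin at 50 μg/ml, while blastocysts gave inner cell mass (ICM) by immunosurgery and trophectoderm (TE) by cutting under a microscope. H3K4me3, H3K27ac, H3K27me3 and H3K9me3 each had 2 libraries in each of the 9 groups, and ATAC-seq had 3 each in BL, ICM and TE. A library pooled about 500 oocytes or 1000 to 1500 blastomeres, so a bin marked in a few cells and a bin weakly marked in every cell cannot be told apart. The labels do not say that replicates came from separate collections, so the spread between them may be technical.

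α-Amanitin binds RNA polymerase II and blocks its movement, which stops the transcription of messenger RNA. In cattle the embryonic genome is switched on in earnest around the 8-cell stage, so embryos held in the inhibitor reach that stage largely on maternal RNA and protein. H3K27ac is laid down by the acetyltransferases p300 and CBP and marks active promoters and enhancers. H3K4me3 marks promoters, and in oocytes and early embryos it also covers wide stretches away from them. H3K27me3 is the mark of Polycomb repression and sits on the same lysine as H3K27ac, so a single histone tail carries one or the other. H3K9me3 marks heterochromatin and silenced repeats.

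Peak lists hold no read totals, and the depth behind them is unknown. Autosomal H3K27ac coverage was 101 Mb and 97.7 Mb in the 8A lists, 90.5 Mb and 89.7 Mb in the 8C lists, 43.4 Mb and 44.0 Mb in the 4C lists and 55 Mb and 67.8 Mb in the 2C lists. The 8A lists were therefore the longest of the lists the rule compares, and the part of list length in the number of members was looked at only by trimming. All 8 lists were trimmed to the covered length of the shortest, by keeping the peaks of highest score, and members were chosen anew. The rule then gave 3605 bins. Bins marked in the full 2C or 8C lists could enter, so these need not be a subset of the members. How many entered in this way was not counted. The shares of the 3605 bins were 17.4% for H3K27ac at MO, 23.1% in ICM and 43.5% for H3K4me3 in 8A. The members chosen on the full lists had 11.6%, 14.8% and 27%. The H3K4me3 lists of 8C differed most within a group used here, with 68.6 Mb in replicate 1 and 112 Mb in replicate 2. Stage labels were not checked against marker genes, because no gene annotation of the build of the lists was used here, and regions are therefore given by position only. With 2 libraries per group an exact two-sided test cannot give a p below 0.33, and the bins were chosen with results known, so shares are given with their spread and without a p.

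The label of an acetylation found only under the inhibitor held for some members and not for others. No base was covered in any of the 6 lists of 2C, 4C and 8C in 3954 members (38.5%). Another 1062 (10.3%) had under 250 bp covered in the most covered of these lists, and 5260 (51.2%) had from 250 bp to just under 500 bp. Most of this partial coverage lay in the 4C lists, which left 66.2% and 68.6% of the members without a covered base. The corresponding values were 84.8% and 83.5% for 2C and 90.7% and 90.5% for 8C. Many members thus had partial 4C coverage, while each 8C list reached into fewer than 1 member in 10. Whether the 4C coverage came from small peaks or from edges of neighbouring peaks was not measured.

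**Figure D1:**
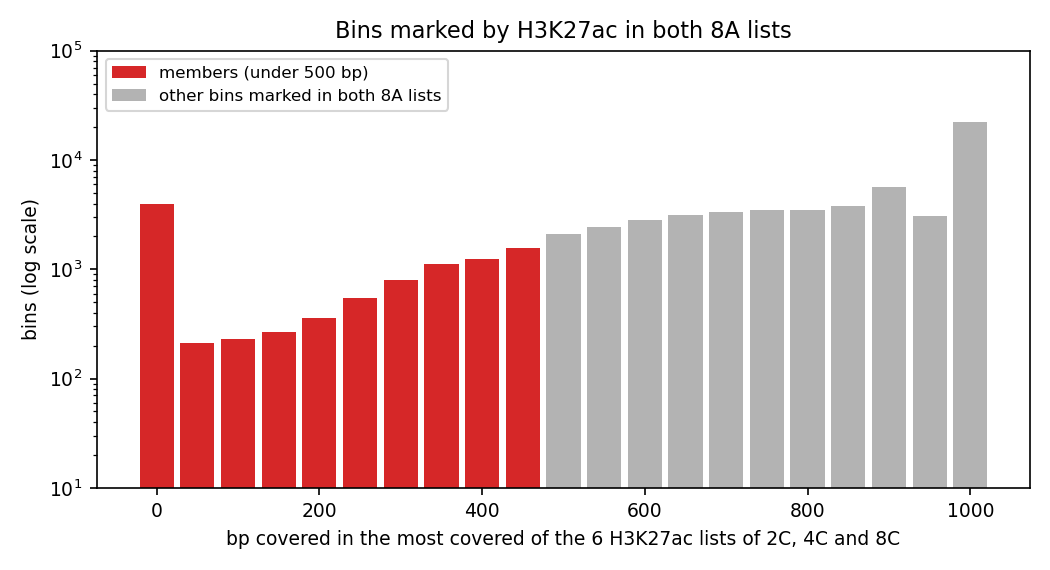
Bins marked by H3K27ac in both 8A lists, counted on a log axis by the base pairs covered in the most covered of the 6 H3K27ac lists of 2C, 4C and 8C, in steps of 50 bp. The 3954 bins at 0 form a separate bar, and counts climb from 211 bins at 50 bp to 3511 at 750 bp with no dip at the limit of 500 bp.

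Of the 1563 members with 450 bp to just under 500 bp in the most covered of the 6 lists, 27% were marked by H3K27ac in GV oocytes, against 29.2% of the 2098 bins with 500 bp to just under 550 bp that the rule left out. For H3K4me3 at 4C the shares inside and outside this limit were 47.0% and 49.1%, and for H3K27me3 at BL 43.0% and 42.4%. At the limit of presence, 2645 members had 500 bp to just under 550 bp in the less covered 8A list. Another 3415 bins with 450 bp to just under 500 bp were left out. Their shares with H3K4me3 at 4C were 31.6% and 25.3%, and with H3K27me3 at BL 34.3% and 33.6%. For H3K27ac in GV the shares were 20.6% and 17.3%. At the limit of presence the members thus had the higher share in all 3 measures. At the limit of absence the bins left out were higher for H3K27ac in GV and H3K4me3 at 4C, and lower for H3K27me3 at BL. These shares are given without a spread.

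Members were mostly single bins. The rule leaves out touching bins marked at 2C, 4C or 8C, and run lengths of other sets were not taken. They formed 9429 runs of touching bins, of which 8692 (92.2%) were 1 bin long, 644 were 2 bins, 78 were 3, 13 were 4 and 2 were 5. In 8A replicate 1 the median member had 650 bp covered and lay in a peak of 750 bp (quartiles 550 and 1050 bp), and in replicate 2 it had 700 bp covered in a peak of 850 bp (650 and 1250 bp). The score the authors gave these peaks, a whole number of unstated meaning, had a median at the 69.0th percentile of the replicate 1 list and at the 61.4th of the replicate 2 list. The other 55780 bins marked in both 8A lists, called the other 8A bins here, lay in peaks with median widths of 1000 bp and 1150 bp. Their score percentiles were 86.4 and 82.6. Members with no covered base at 2C, 4C and 8C ranked lower, at 61.9 and 51.9.

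Many members were neighbours of bins marked in untreated embryos. A bin marked at 2C, 4C or 8C lay directly beside 4590 members (44.7%) and within 5 bins of 7999 (77.8%), against 34.4% of all bins within 5 bins. For bins marked at the earlier stages 2C or 4C the count within 5 bins was 7206 (70.1%). Of the bins that gained H3K27ac at 8C and kept it in 8A, 68.6% lay as near. The share of all bins was not taken for the count directly beside or for 2C and 4C alone. Whether those counts exceed the share of all bins is therefore not known. Peaks of both 8A lists that touched no H3K27ac peak of 2C, 4C or 8C at all held 3772 members (36.7%). The lists of these stages also chose the members, so this share is not independent of the rule. It was not taken over all 8A peaks. The 2277 members more than 5 bins from a bin marked at those stages are called isolated here, a limit chosen after the data were seen, and their values are given where they differ most.

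Single libraries show how well such bins recur. Bins marked in 8A replicate 1 and in none of the 6 lists numbered 22727, and 45.2% of them were marked in replicate 2, where 4.13% of all bins were. Of 26627 bins picked in replicate 2, 38.6% were marked in replicate 1, against 3.85% of all bins. The same choice made in 8C, with bins absent from 2C, 4C and 8A, gave recurrence of 54.6% and 56.0%. Over all bins marked in 8A replicate 1, 68.9% were marked in replicate 2, and 64.3% the other way round. Bins picked in 1 8A list were thus marked in the other less often than 8A bins at large, and the difference carries no test. Both 8A libraries therefore set the number of members, which is 26627 without replicate 1 and 22727 without replicate 2.

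H3K27ac outside the stages used for the choice was present in a minority of members. In GV oocytes 19.8% of members were marked in replicate 1 and 23.2% in replicate 2, a mean of 21.5% ± 2.46 (SD, n = 2) against 5.55% ± 0.706 of all bins. In both GV lists 1646 members (16.0%) were marked, where 4.08% of all bins were. The share of the other 8A bins marked in GV was 46.3% ± 2.97, so members held oocyte acetylation less often than the rest of the 8A sites and more often than the genome at large. Without partial coverage at 2C, 4C and 8C it was 17.5% ± 2.38, and in isolated members 16.6% ± 2.05.

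In morulae 12% and 11.2% of members were marked, a mean of 11.6% ± 0.606 (SD, n = 2), and 918 (8.93%) were marked in both lists against 3.54% of all bins. Blastocysts followed at 7.71% and 8.20% (7.96% ± 0.351), with 696 (6.77%) in both lists against 1.71%. ICM gave 15.7% and 14% (14.8% ± 1.2), with 1286 members (12.5%) in both lists against 3.21%. TE gave 8.35% and 9.04% (8.70% ± 0.489), with 737 (7.17%) in both lists against 1.89%. Among the later groups ICM had the highest values and its 2 libraries lay above both libraries of MO, BL and TE. The order of all bins was different, with MO (4.64%) above ICM (3.97%), TE (2.34%) and BL (2.03%), and relative to all bins MO was lowest at 2.50 times and ICM, TE and BL stood at 3.73, 3.71 and 3.91 times.

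Most members were not marked again. In no GV list and no list of MO, BL, ICM or TE were 6118 members (59.5%) marked, against 86.9% of all bins and 35.0% of the other 8A bins. Of the 3954 members without a covered base at 2C, 4C and 8C, 2485 (62.8%) belonged to this class, so these had H3K27ac peaks covering at least 500 bp in the inhibitor-treated embryos and in no other group. A later group was marked in both of its lists at 1672 members (16.3%, all bins 5.37%), and all 4 later groups at 368 (3.58%, all bins 0.875%).

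Oocyte and later acetylation overlapped in few members. Both GV lists and both lists of a later group were marked at 529 members (5.15%, all bins 1.08%). GV alone, with no later list, accounted for 994 (9.67%, all bins 2.71%), and a later group with no GV list for 953 (9.27%, all bins 3.86%). Between the blastocyst lineages, 516 members (5.02%, all bins 1.53%) were marked in both ICM and no TE list, and 95 (0.924%, all bins 0.447%) in both TE and no ICM list. ICM-only bins outnumbered TE-only bins among all bins too, at 37983 against 11119.

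**Figure D2:**
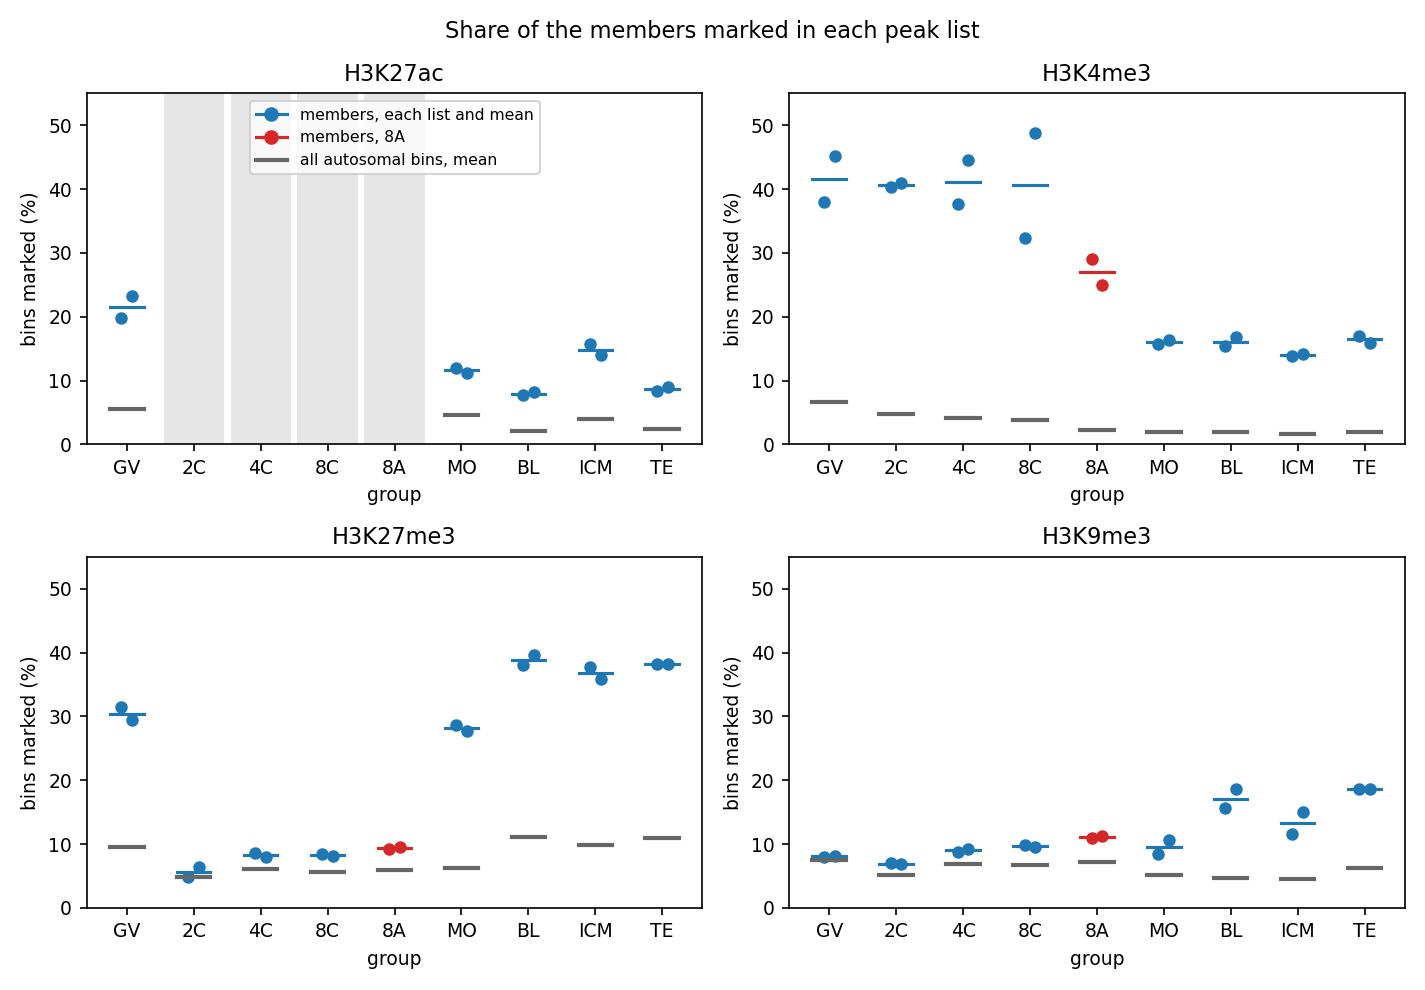
Share of the 10276 members marked in each list (points), their mean (coloured line) and the mean share of all autosomal bins (grey line), for 4 histone marks in 9 groups with 2 libraries each; grey bands cover the groups that chose the members. H3K4me3 lies near 41% from GV to 8C, at 27% in 8A and near 16% later, while H3K27me3 is 30.4% in GV, under 10% from 2C to 8A and 38.9% at BL.

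H3K4me3 was already present at many members before the 8-cell stage. At 4C, 37.7% of members were marked in replicate 1 and 44.5% in replicate 2 (41.1% ± 4.80, SD, n = 2), against 4.19% ± 0.473 of all bins, or 9.83 times that level. At 8C the libraries gave 32.4% and 48.8% (40.6% ± 11.6), and in 8A 29.1% and 25.0% (27% ± 2.91). The 2 libraries of 8A lay below the 4 libraries of 4C and 8C. All bins showed the same order, with 3.74% ± 1.39 at 8C and 2.17% ± 0.264 in 8A, so that members stood at 10.9 and 12.5 times the level of all bins. Members thus had a lower share with H3K4me3 in 8A, and a higher one relative to all bins in these shorter lists. The other 8A bins had higher shares than the members, 66.6% ± 4.28 at 4C, 63.8% ± 12.4 at 8C and 46.5% ± 2.99 in 8A. Relative to all bins they also rose, from 17.1 times at 8C to 21.4 times in 8A. Members chosen on 8A replicate 2 alone had 17.6%, and the bins absent from 8C only had 41%.

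In both lists of a group, H3K4me3 marked 3379 members at 4C (32.9%, all bins 3.04%), 3169 at 8C (30.8%, all bins 2.54%) and 2081 in 8A (20.3%, all bins 1.54%). Few members had H3K4me3 in 8A and not in untreated embryos of the same hour (8C) or at 4C. It marked 29 members (0.282%, all bins 0.0295%) in both 8A lists and neither 8C list, and 31 (0.302%, all bins 0.0182%) in both 8A and neither 4C list. The opposite direction held 517 members marked in both 8C and neither 8A list (5.03%, all bins 0.627%) and 633 in both 4C and neither 8A list (6.16%, all bins 0.880%). Each of the counts with H3K4me3 in 8A alone thus stayed below 1 member in 100.

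Outside cleavage, H3K4me3 marked 41.6% ± 5.06 of members in GV oocytes and 40.7% ± 0.323 at 2C. Morulae had 16.0% ± 0.475, BL 16.1% ± 0.991, ICM 14.0% ± 0.234 and TE 16.5% ± 0.778 (SD, n = 2 each). The shares of GV and cleavage stages did not overlap with those of MO and later. Relative to all bins the values were 6.26 times at GV, 8.58 at 2C and 8.30 to 8.90 times from MO on. Isolated members had lower shares, 28.2% ± 4.10 at 4C, 28.0% ± 9.10 at 8C and 16.4% ± 2.02 in 8A. In 8A this was still 7.57 times the level of all bins. The other 8A bins had 68.1% ± 5.1 in GV and 29.4% ± 0.581 at MO, above the members.

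H3K27me3 followed another course. In GV oocytes 31.5% and 29.4% of members were marked (30.4% ± 1.47, SD, n = 2, all bins 9.55%), and at 2C 4.85% and 6.34% (5.60% ± 1.06, all bins 4.84%). The shares were 8.66% and 7.90% at 4C (8.28% ± 0.537), 8.45% and 8.16% at 8C (8.31% ± 0.200) and 9.24% and 9.58% in 8A (9.41% ± 0.234), against 6.03%, 5.56% and 5.98% of all bins. At MO they were 28.6% and 27.8% (28.2% ± 0.571, all bins 6.28%). The means were 38.9% ± 1.18 at BL, 36.8% ± 1.39 in ICM and 38.2% ± 0.0206 in TE (all bins 11.1%, 9.88% and 11.0%). The shares of members with H3K27me3 were thus higher in the oocyte and from the morula on than in any library of 2C to 8A, where they stood at 1.16 to 1.57 times the level of all bins. Isolated members had 14.6% ± 0.497 in GV and 11.7% ± 0.0311 at MO, with BL at 18.4% ± 1.58, ICM at 18.8% ± 1.49 and TE at 19.2% ± 0.373.

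The same course appears in counts over both lists. H3K27me3 marked 2713 members in GV (26.4%, all bins 7.28%), 692 at 4C (6.73%, all bins 4.56%), 708 at 8C (6.89%, all bins 4.31%), 810 in 8A (7.88%, all bins 4.70%), 2648 at MO (25.8%, all bins 5.26%) and 3697 at BL (36.0%, all bins 9.66%). Both GV and both BL lists were marked at 1965 members (19.1%, all bins 4.02%), and 1385 of these were marked in no list of 4C, 8C or 8A (13.5% of members, all bins 2.44%). The other 8A bins showed the course as well, with 33.8% ± 1.40 in GV, 5.08% ± 0.207 at 8C, 7.39% ± 0.134 in 8A and 43.1% ± 0.35 at BL. The course is thus shared by the rest of the 8A sites.

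H3K9me3 at the cleavage stages stood at 1.32 to 1.53 times the level of all bins. It marked 8.74% and 9.26% of members at 4C (9% ± 0.372, SD, n = 2), 9.91% and 9.54% at 8C (9.72% ± 0.261) and 10.9% and 11.3% in 8A (11.1% ± 0.275). All bins had 6.84%, 6.74% and 7.24%. Over both lists the counts were 772 at 4C (7.51%, all bins 5.39%), 866 at 8C (8.43%, all bins 5.42%), 970 in 8A (9.44%, all bins 5.89%) and 1459 at BL (14.2%, all bins 3.45%). In the oocyte the mean was 8.05% ± 0.0619 beside 7.51% of all bins. The highest means were 17.1% ± 2.13 at BL and 18.7% ± 0.00688 in TE, and in isolated members these were 7.36% ± 0.528 and 7.66% ± 0.155, against 4.70% and 6.18% of all bins.

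Few members differed in repressive marks between 8C and 8A. H3K27me3 was found in both 8A and neither 8C list at 127 members (1.24%, all bins 0.650%) and in both 8C and neither 8A list at 70 (0.681%, all bins 0.404%). For H3K9me3 the counts were 114 (1.11%, all bins 0.663%) and 58 (0.564%, all bins 0.376%). For each repressive mark alone, presence in both 8C lists and absence from 8A was thus recorded at fewer than 1 member in 100. At 8C most members carried neither mark in the first place.

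Repressive marks of 8A were often found together, at members as in the genome at large. H3K27me3 and H3K9me3 were each found in both 8A lists at 729 members (7.09%, all bins 4.15%), out of 810 with H3K27me3. Over all bins it was 103232 of 117014. At 355 members H3K4me3, H3K27me3 and H3K9me3 were all found in both 8A lists (3.45%, all bins 0.269%). The share of the other 8A bins was near this, at 3.3%. With the acetylation the 355 members were called for 4 marks with opposed roles. H3K27ac and H3K27me3 in 1 bin may lie on different nucleosomes, alleles or cells, which cannot be told apart here, and whether signal common to all antibodies had a part was not tested. None of the 3 other marks was found in any 8A list at 6217 members (60.5%, all bins 88.5%).

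These repressive values depended on place. In the 2277 isolated members H3K27me3 marked 5.29% ± 0.342 in 8A and H3K9me3 6.19% ± 0.0621, both below the 5.98% and 7.24% of all bins. At 8C the shares were 6.19% ± 0.124 and 7.58% ± 0.0932, above the 5.56% and 6.74% of all bins. H3K27me3 at BL was 18.4% ± 1.58 there, against 11.1% of all bins. Members chosen anew from peaks above the median score per bp of their list had 4.02% for H3K27me3 and 5.04% for H3K9me3 in 8A. All bins then had 3.67% and 4.47%. Members with no covered base at 2C, 4C and 8C had 10.2% ± 0.143 and 12.2% ± 0.376 in 8A, or 1.71 and 1.69 times all bins. The excess of repressive marks over all bins in 8A was thus absent from isolated members and small among peaks of higher score. It was present in members with no covered base at 2C, 4C and 8C.

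**Figure D3:**
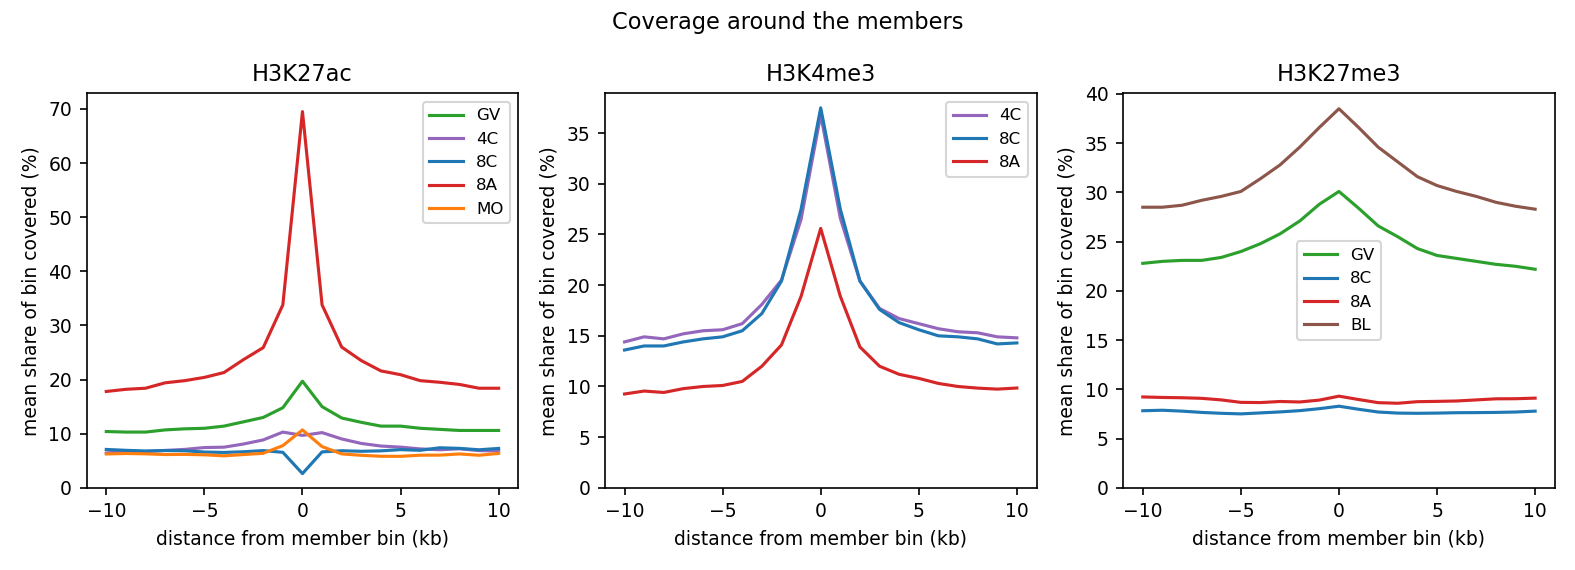
Mean share of each bin covered by peaks, as the mean of 2 lists, for H3K27ac, H3K4me3 and H3K27me3. Bins lie at 0 to 10 kb on either side of the 10276 members. The centre of the 4C, 8C and 8A H3K27ac curves is fixed by the rule, and their flanks are not independent of it. H3K4me3 peaks on the members at 36.8% in 4C, 37.5% in 8C and 25.6% in 8A, and H3K27me3 peaks there in GV (30.1%) and BL (38.5%) and is nearly flat in 8C and 8A.

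Coverage around the members showed how local each mark was. H3K4me3 at 4C covered 36.8% of the member bin on average, 26.5% of the bin on its left, 15.6% at 5 kb and 14.4% at 10 kb. At 8A the values were 25.6%, 18.9%, 10.1% and 9.26%. H3K27me3 of blastocysts was wide, with 38.5% on the member and 28.5% at 10 kb, and in 8A it was flat, with 9.31% and 9.23%. H3K27ac of GV oocytes covered 19.7% of the member and 10.4% at 10 kb. H3K27ac of 8A covered 17.8% at 10 kb, where 8C covered 7.09%. Both groups chose the members, so this difference in the surroundings is not independent of the rule. Around the bins that gained H3K27ac at 8C and kept it in 8A, the values at 10 kb were 16.1% in 8A and 18.0% in 8C.

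Members divided by their H3K4me3 at 4C, which the rule did not use. Both 4C lists were marked at 3379 members, neither at 5199 (50.6%) and 1 of the 2 at 1698 (16.5%). Members with H3K4me3 in both 4C lists were marked by ATAC in 53.3% ± 5.84 at BL (SD, n = 3), by H3K4me3 in 38.4% ± 1.95 and by H3K27me3 in 60.1% ± 0.0628 (SD, n = 2). Members without it in either 4C list had 8.72% ± 2.12, 2.67% ± 0.245 and 22.6% ± 1.81. All bins had 3.77%, 1.94% and 11.1%, so the members without H3K4me3 at 4C still stood at 2.31 times the level of all bins for ATAC.

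Acetylation at other stages differed between these classes in the same direction. H3K27ac marked 28.8% ± 1.84 of the members with H3K4me3 at 4C in GV, 18.2% ± 0.377 at MO and 26.7% ± 2.43 in ICM, against 16.2% ± 2.42, 7.66% ± 0.775 and 7.69% ± 0.544 of those without (SD, n = 2). In 8A, H3K27me3 marked 18.9% ± 0.502 and 3.33% ± 0.136, and H3K9me3 21.3% ± 0.565 and 4.49% ± 0.204. The class without H3K4me3 was below all bins (5.98% and 7.24%) for these repressive marks. Overlap of H3K27me3 with H3K4me3 was near that of H3K4me3 bins at large, with both marks in both lists at 441 of 3379 members against 8848 of 75622 bins at 4C, and at 388 of 2081 members against 7395 of 38370 bins in 8A.

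At BL, 415 members carried H3K4me3 and H3K27me3 in both lists each (4.04%, all bins 0.176%), the pair of marks known from bivalent promoters of developmental genes. The share was 4.23% of the other 8A bins. Open chromatin was found at members in all blastocyst samples, with 25.7% ± 3.71 marked in BL, 22.0% ± 2.07 in ICM and 22.7% ± 1.82 in TE (SD, n = 3), against 3.77%, 3.24% and 3.46% of all bins. The BL lists gave 21.5%, 27.8% and 28.0%, ICM 21.1%, 24.3% and 20.5%, and TE 22.2%, 24.7% and 21.1%, so the 3 groups overlapped. All 9 ATAC lists were marked at 1423 members (13.8%, all bins 1.37%, other 8A bins 23.6%). Of these, 368 had no H3K27ac in any list of MO, BL, ICM or TE (3.58% of members, all bins 0.178%, other 8A bins 3.12%).

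Members were set beside the bins that gained H3K27ac at 8C. Of those, 6737 were marked in both 8C and both 8A lists and in no 2C or 4C list (gains kept under the inhibitor), and 25034 in both 8C lists and in no 8A, 2C or 4C list (gains absent under it). H3K27ac at MO was 41.7% ± 0.231 of the kept gains, 28.8% ± 1.47 of the absent gains and 11.6% ± 0.606 of the members (SD, n = 2). In ICM the shares were 40.6% ± 1.53, 19.5% ± 0.624 and 14.8% ± 1.2. Members thus had the lowest later acetylation of the 3 sets in every MO and ICM library. At BL and TE their 7.96% ± 0.351 and 8.70% ± 0.489 lay nearer to the absent gains (9.88% ± 0.658 and 9.31% ± 0.393). Both sets of gains were chosen as marked at 8C and the members as unmarked there, so this order is not independent of the choice.

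H3K4me3 ordered the sets in another way. At 4C the kept gains had 44.9% ± 2.24 and the members 41.1% ± 4.80, with overlapping libraries, while the absent gains had 5.96% ± 0.367. At MO the kept gains had 44.0% ± 0.724, the members 16.0% ± 0.475 and the absent gains 13.4% ± 0.830. Members and kept gains therefore overlapped in H3K4me3 at 4C and not at MO. H3K27me3 at BL was 38.9% ± 1.18 of the members, 17.0% ± 0.294 of the kept gains and 7.13% ± 0.181 of the absent gains, and in GV 30.4% ± 1.47, 16.2% ± 1.42 and 9.17% ± 0.0311. In 8A it was 9.41% ± 0.234, 2.00% ± 0.126 and 3.11% ± 0.116. The sets share libraries and bins of 1 library are not independent, so these differences are larger than the spread of the 2 libraries where the SDs say so and carry no test.

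**Figure D4:**
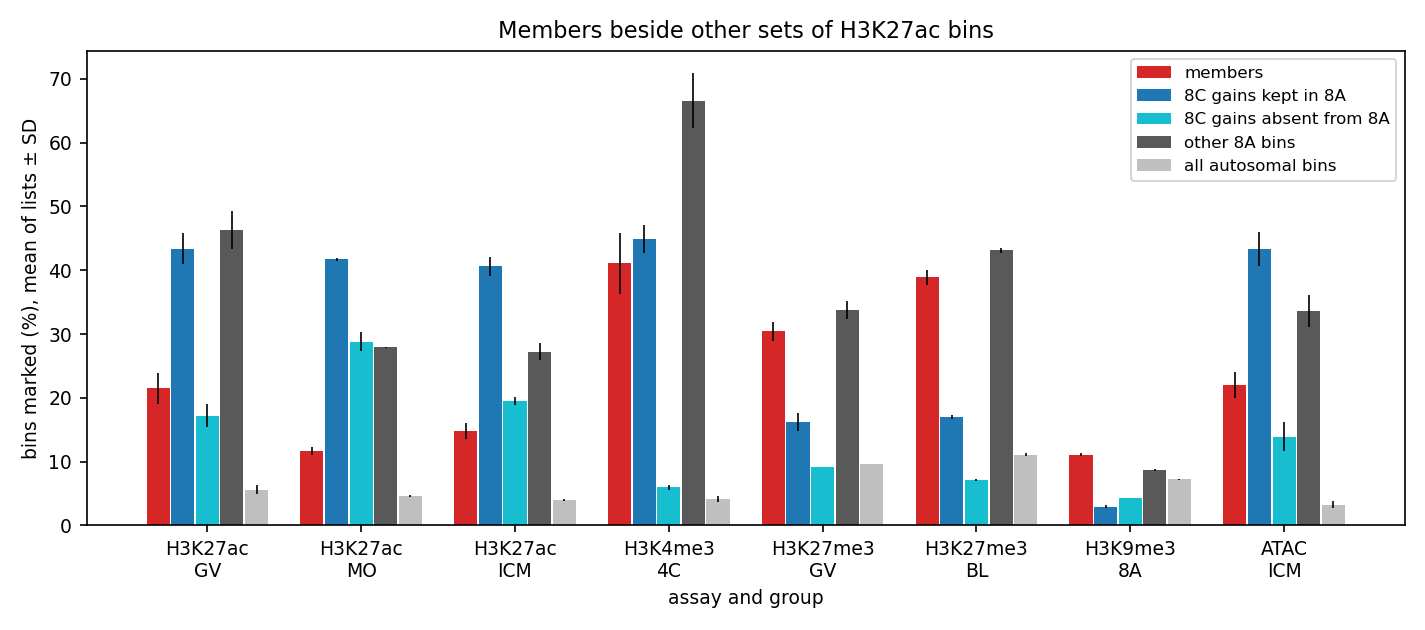
Share of bins marked (mean of the lists, error bar SD, n = 2 for the marks and 3 for ATAC) in 8 assay and group pairs, for the members, the kept and absent 8C gains, the other bins marked in both 8A lists (kept gains included) and all autosomal bins. Members lie below both sets of gains for H3K27ac at MO (11.6%) and above both for H3K27me3 at GV (30.4%) and BL (38.9%), and near the other 8A bins for H3K27me3.

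The longest runs of members show these combinations at single places (ARS-UCD1.2 positions). The run on chromosome 17, 73057001 to 73062000, was 5 kb long, with 92.0% and 88.0% covered by H3K27ac in 8A, 9% and 0 at 4C, and no covered base at 2C, 8C, GV or any later group. H3K4me3 covered 82.0% or more of it in every list from GV to 8A and none of it from MO on. H3K27me3 covered all of it in each list except 4C replicate 1 (64.0%), and H3K9me3 covered it fully in both 8C and both 8A lists. No run marked throughout by H3K4me3, H3K27me3 or H3K9me3 in both 8A lists was longer.

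The other run of 5 kb, on chromosome 15, 84911001 to 84916000, had 75% and 87.0% covered by H3K27ac in 8A. H3K4me3 covered 40.0% and 30.0% at 4C, 56.0% and 96.0% at 8C and 22.0% and 21.0% in 8A. H3K27me3 lists disagreed here, with 0 and 56.0% in 8A and 100% and 0 at BL, and so did H3K9me3 in 8A (0 and 88.0%). From MO on H3K9me3 covered 76.0% to 100% of it in every list.

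Of the runs of 4 kb, the one on chromosome 18, 54244001 to 54248000, combined acetylation, H3K4me3 and open chromatin over several groups. H3K27ac in 8A covered 91.2% and 85.0%, and it was found again in ICM (61.2% and 46.2%) and BL (37.5% and 46.2%). H3K4me3 covered 41.2% to 75% of it in every list of the series, and ATAC 52.5% to 68.8% in all 9 lists. H3K9me3 covered none of it in any list, which sets it apart from the runs on chromosomes 17 and 15.

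On chromosome 20, 70031001 to 70035000, H3K27ac covered 88.8% and 87.5% in 8A and 26.2% and 16.2% at 4C. H3K27me3 covered none of the run at 2C, 4C, 8C or 8A and all of it in both lists of GV, MO, BL, ICM and TE, and H3K9me3 all of it from MO on. This single run repeats the course that the members showed as a set. On chromosome 11, 104334001 to 104338000, H3K27ac in 8A covered 73.8% and 96.2%, and H3K27me3 covered the whole run in every list of the series.

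The run on chromosome 29, 43313001 to 43317000, had 90% and 86.2% covered by H3K27ac in 8A, no H3K27me3 in any list and H3K4me3 in 62.5% and 91.2% at 4C, 43.8% and 78.8% at 8C and 76.2% and 48.8% in 8A. The run on chromosome 18, 62025001 to 62029000, had no H3K27ac base outside 8A (86.2% and 81.2%). H3K4me3 covered 86.2% to 100% of it at 4C and 8C and 95.0% and 90% in 8A. H3K27me3 covered all of it in both 8C lists and 90% and 0 in 8A. The run on chromosome 2, 129142001 to 129146000, was the barest, with H3K27ac in 8A at 82.5% in each list, at 4C in replicate 1 (20.0%), and otherwise only H3K4me3 at 7.5% in 8A replicate 1. No other list of the series covered a base of it.

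Runs marked throughout in the oocyte or the morula were shorter. The longest with H3K27ac in both GV lists were on chromosome 23, 10477001 to 10480000 (100% in both GV lists, 83.3% and 100% in 8A), and chromosome 25, 32310001 to 32313000 (80% and 95.0% in GV, 81.7% and 86.7% in 8A). H3K27me3 covered neither at 4C, 8C or 8A and covered both fully in BL and TE. The longest with H3K27ac in both MO lists were on chromosome 22, 7644001 to 7647000, and chromosome 3, 119583001 to 119585000. The run on chromosome 22 was covered to 85.0% or more by H3K27ac in every later list and to 80% or more by ATAC, while the run on chromosome 3 was fully covered in ICM and to 15.0% and 22.5% at BL. These runs were picked for H3K27ac in GV or MO, so the acetylation that 8A shared there with the oocyte or the morula follows from the choice.

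**Figure D5:**
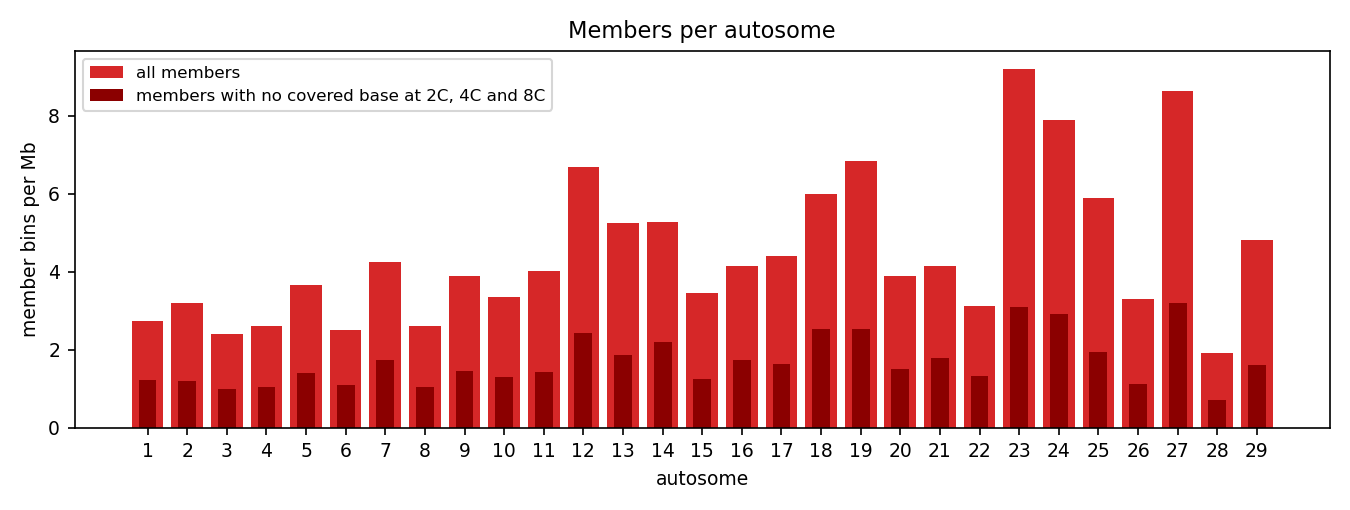
Member bins per Mb on each of the 29 autosomes (red) and, in front, the members with no covered base at 2C, 4C and 8C (dark red). Chromosomes 23, 27 and 24 are highest at 9.20, 8.62 and 7.88 per Mb, and 28, 3 and 6 are lowest at 1.92, 2.40 and 2.50.

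Members were spread over all autosomes at uneven density. Chromosome 23 held 9.20 members per Mb, chromosome 27 8.62 and chromosome 24 7.88, against 1.92 on chromosome 28, 2.40 on chromosome 3 and 2.50 on chromosome 6. As a share of all bins marked in both 8A lists, members were 17.7%, 21.6% and 22.5% on the first 3 and 11.5%, 11.6% and 14.3% on the last 3, so part of the density followed 8A acetylation as such. The rule applied to X gave 192 bins, or 1.38 per Mb beside 4.13 on the autosomes. Within chromosomes, 1002 members (9.75%) lay in the last 2 Mb, which hold 2.33% of all bins, and 8.94% of the other 8A bins lay there too, with 2.64% of the kept and 1.25% of the absent gains. The first 2 Mb held 176 members (1.71%), below the 2.33% of all bins and 2.23% of the other 8A bins there.

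Members also clustered at a scale of 1 Mb. Of 2502 windows, 306 (12.2%) had 10 or more members, and these windows held 5057 members (49.2%). The densest were on chromosome 7 (17000001 to 18000000, 56 members), chromosome 20 (70000001 to 71000000, 56) and chromosome 13 (81000001 to 82000000, 53), the latter 2 starting within 2.47 Mb of the chromosome end. In the same order, these windows held 196, 243 and 221 bins marked in both 8A lists. The spread over windows was not counted for the other 8A bins. Whether members clustered more than 8A acetylation as such is therefore not known. Of the 56 members in the window on chromosome 20, 53 had H3K27me3 in both BL lists and none had H3K27ac in both MO lists. In the window on chromosome 7 the counts were 22 and 3, and on chromosome 13 they were 34 and 1. Dense windows thus differed in how far Polycomb marking later covered their members.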

How the data were processed

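Bovine oocytes, embryos and isolated lineages had been profiled by CUT&Tag and ATAC-seq, with 1 peak list per library (81 lists). The submitters' processing notes name SICER, BWA 0.7.9a, SAMtools 1.9, Picard 2.26.10, cutadapt 1.8.3 and Trim Galore 0.4.0 and the build ARS-UCD1.2. What each tool did, the peak cutoff and any control library were not stated in any source used here. The deposited lists hold positions and, per peak, a whole-number score that the authors did not name; it was used to rank peaks within a list only. Peak ends are inclusive, and edges lie on a 50 bp grid for H3K27ac, H3K4me3 and ATAC and on a 200 bp grid for H3K27me3 and H3K9me3, so a repressive peak marks whole bins more readily.

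Groups came from the sample titles. Chromosome lengths were the highest peak end in any list (2490 Mb in all). Bases under peaks were counted per 1 kb bin, and shares of marked bins were taken per library, with mean ± SD. Runs are touching members; the 8 longest, ordered by length and then by bases covered in the 8A lists, were named, and the 2 longest entirely marked by H3K27ac in GV or MO, by no other H3K27ac list, or by H3K4me3, H3K27me3 or H3K9me3 in 8A (12 distinct runs), with the 3 densest and 3 sparsest autosomes and the 3 densest windows of 1 Mb. The members, sets and measures were chosen with earlier results of these data known. The planned look at gene starts was not made, because the gene table at hand is of another assembly, and no sequence is printed for the same reason. The bin counts were tested on simulated lists. Alternatives were other coverage limits, bin sizes, definitions of absence, trimmed or score-filtered lists, X, and single libraries left out. Python 3.11.15, NumPy 2.4.6, pandas 2.3.3 and matplotlib 3.10.9 were used.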

Additional observations from a re-analysis of the deposited data

How the results depend on the processing

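Shares below are of members marked. The number of members depended on the limits. When any covered base marked a bin there were 16748, with 13.7% for H3K27ac at MO and 7.9% and 9.54% for H3K27me3 and H3K9me3 in 8A. A limit of 90% left 3438, with 9.85% for H3K27ac at MO and 32.3%, 11% and 12.7% for H3K4me3, H3K27me3 and H3K9me3 in 8A. Bins of 500 bp gave 20743 members, with 8.97% and 10.8% for the repressive marks in 8A, and bins of 2 kb gave 4726, with 10.7% for H3K27ac at MO and 31.8%, 9.9% and 11.8% for the 3 marks in 8A. Requiring no covered base at 2C, 4C and 8C left 3954, with 17.5% for H3K27ac in GV and 23%, 10.2% and 12.2% in 8A. Absence from 8C only gave 30574, with 31.2% in GV and 41%, 12.1% and 13.8% in 8A. Lists trimmed to 43.4 Mb, with members chosen anew, gave 3605. These had H3K27ac at 30.3% in GV, 17.4% at MO and 23.1% in ICM, and 43.5%, 8.34% and 10.1% in 8A. Peaks above the median score per bp gave 10.8% at MO and 30.5%, 4.02% and 5.04% in 8A. The isolated members, a limit chosen after seeing the data, numbered 2277, with H3K27ac at 16.6% in GV and 12.5% at MO and 16.4%, 5.29% and 6.19% in 8A. Over the alternatives other than single libraries left out, H3K27ac and H3K4me3 shares stayed above all bins. They ranged from 1.68 times for H3K27ac at MO to 46.3 times for H3K4me3 in 8A. H3K27me3 and H3K9me3 in 8A ranged down to 0.885 and 0.855 times.

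Leaving out 1 library at a time gave 11427 to 26627 members, the highest without 8A replicate 1. H3K27ac was 17.9% to 24.3% in GV, 9.92% to 13.5% at MO and 11.6% to 16.3% in ICM. In 8A, H3K4me3 was 17.6% to 31.7%, H3K27me3 8.35% to 11.2% and H3K9me3 10.1% to 13%. The cause of these differences was not tested. No paired analysis was possible because the results come from no test. Depth is unknown, so an unmarked bin may be one that was not detected.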
